A study of Homo sapiens with 3 samples.

Results

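The genes described here encode ATP-dependent chromatin remodelers of the SWI/SNF, NuRD, CHD, ISWI and INO80 groups and their partner subunits. They are 56 genes, listed by symbol, and 55 of them are among the 17595 endogenous genes listed in the count table. Earlier results of these data were known when this set and the pairs and gene lists below were chosen. ACTL6B, an actin-related subunit known from the neuronal form of the SWI/SNF complex, has no row. The table holds 3 libraries of 1 group: HEK293, an established human line from embryonic kidney cells with part of the adenovirus type 5 genome, grown in glutamine-supplemented DMEM with 10% fetal calf serum, with no treatment given in the labels. Each library started from 1000 lysed cells, of which the share of 100 cells entered 18 cycles of PCR, and tags were taken at the 5′ ends of polyadenylated RNAs. The libraries are named 20, 21 and 23 after the index in their column heading. With 1 group no conditions could be compared. The data allow comparisons of one gene with another inside a library, and of one library with another.

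Remodelers use the energy of ATP hydrolysis to slide, evict or exchange nucleosomes. Each complex is built around 1 ATPase, and most other positions are filled by one of several paralogous subunits, so the choice of paralog defines the form of the complex. SWI/SNF complexes exist as BAF (with an ARID1 subunit), PBAF (with ARID2, PBRM1 and BRD7) and a noncanonical form with BRD9. NuRD joins a CHD-type ATPase to histone deacetylases, ISWI complexes space nucleosomes, and INO80, SRCAP and EP400 complexes exchange or remodel nucleosomes that carry the variant histone H2A.Z.

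Total counts per library lay between 1384172 and 1601555, and levels are given as counts per 1000000 endogenous counts (CPM), mean ± SD over the 3 libraries. One count equalled 0.647 to 0.751 CPM. Judged by the spiked control RNAs (nominally 20000 molecules per cell), 10 CPM corresponded to 5.24 molecules per cell, if spikes and cell RNAs were captured alike. All 7 genes fixed as HEK293 markers had counts, and their summed level was 819 to 879 CPM. Of 11 markers of blood, liver, endothelial, fibroblast and epithelial cells 3 were listed, with a sum of 3.39 to 8.27 CPM. The labels do not state that separate cultures were used, so part or all of the spread among these 3 samples may be technical. The p-values for gene pairs use that spread, pooled over many ratios, and describe these samples alone. Those between libraries cover counting error only.

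Nearly the whole remodeler set was expressed. Of the 56 genes 49 averaged at least 10 CPM, beside 44.6% of all listed genes, and each of the 55 listed members had a count in every library. The median over the 56, with ACTL6B at 0, was 35.9 ± 2.71 CPM, against 6.89 ± 0.20 CPM over all listed genes. Together the members took 0.399% ± 0.0069 of endogenous counts, about 2091 ± 143 molecules per cell by the spikes. These are averages over the lysed cells, so expression in fewer cells and less RNA per cell cannot be told apart.

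The set was uneven. RBBP4, RBBP7, HDAC2, HDAC1, RUVBL1 and SMARCB1 took 44.1% ± 1.11 of the members' counts. In all, 10 genes reached 100 CPM, 39 lay between 10 and 100 CPM, and 6 listed genes stayed below 10 CPM: SMARCA2, DPF1, DPF3, INO80, INO80B and INO80D. From RBBP4 at 406 ± 18.6 CPM down to INO80 at 7.40 ± 0.90 CPM the means spanned 54.9-fold, with only DPF3 lower. When the 55 were ordered by mean, the 3-library ranges of 47 of the 54 neighbouring pairs overlapped. Gaps lay below RBBP4, HDAC1, RUVBL1, RUVBL2, HDAC3, GATAD2A and INO80. Several of the most abundant members, such as RBBP4, HDAC1 and RUVBL1, encode subunits shared among complexes, whereas SMARCB1 is a SWI/SNF subunit. The median was 21.1 CPM for the 15 genes of catalytic ATPases and 43.2 CPM for the other 40 listed members, among them RUVBL1 and RUVBL2. Single ATPase genes stood higher, among them SMARCA5 at 104 ± 12.1 CPM and CHD4 at 98.7 ± 8.99 CPM.

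**Figure D1:**
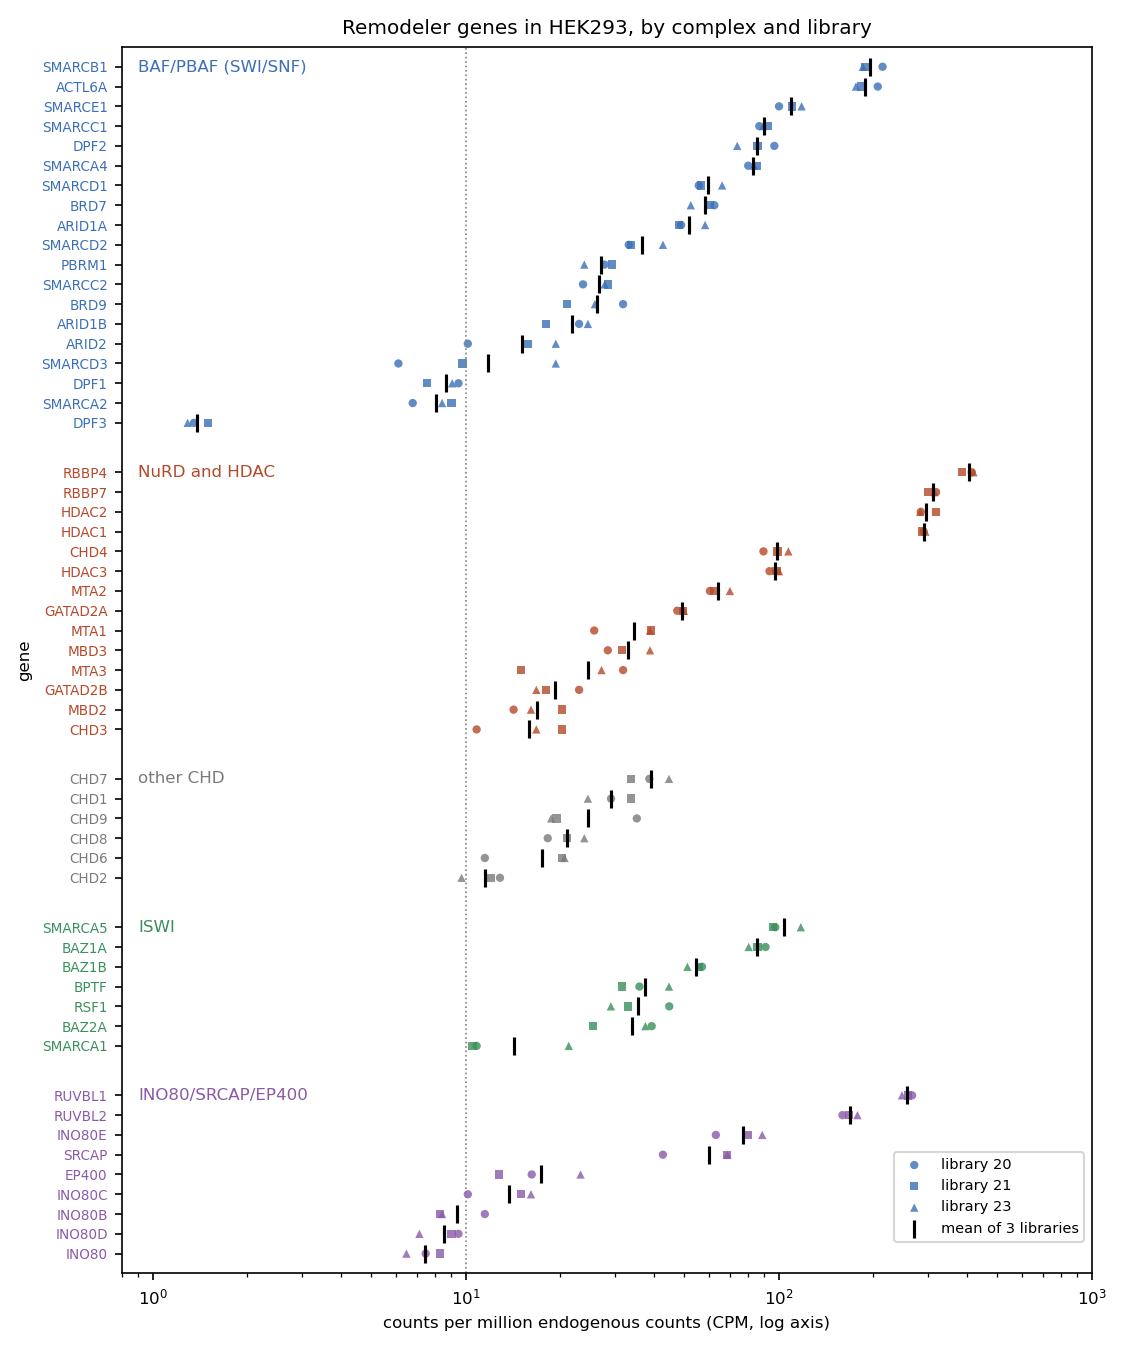
Level of each listed remodeler gene in CPM (log axis) in libraries 20, 21 and 23, with the mean as a black bar, grouped by complex and ordered by mean. The dotted line marks 10 CPM. RBBP4, RBBP7, HDAC2 and HDAC1 stand at the right, and DPF3 lies alone at 1.38 CPM.

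In GENCODE v29, 16 members overlap another listed gene, 13 of them one on the opposite strand, among them RBBP4 (SYNC), RBBP7 (TXLNG), SMARCB1 (DERL3), ACTL6A (MRPL47), SMARCC2 (MYL6), SMARCD3 (CHPF2), BRD7 (ADCY7) and CHD3 (NAA38). RUVBL1 overlaps 2 listed genes on the opposite strand and 1 on its own strand, and INO80E overlaps 2 on the opposite strand (DOC2A and HIRIP3). Whether counting used the strand is not stated, so tags of such partners cannot be told apart and these levels are less certain.

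Levels of different genes are compared here as counts of 5′ ends, which are not divided by length because an RNA gives 1 such end whatever its length. Across the 55 members, the mean CPM and the length of the longest annotated transcript had a Spearman correlation of -0.21, and across 10472 genes with at least 10 pooled counts it was -0.25. Both are descriptions over genes that share the same libraries. The part of length in the differences below was not tested, and where dividing by that length ends a call, turns a direction or moves a ratio by more than 1.5-fold, the value is given. For HDAC2 the longest annotated transcript has 9874 bases and for HDAC1 2124, so the correction depends strongly on which transcript is taken.

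**Figure D2:**
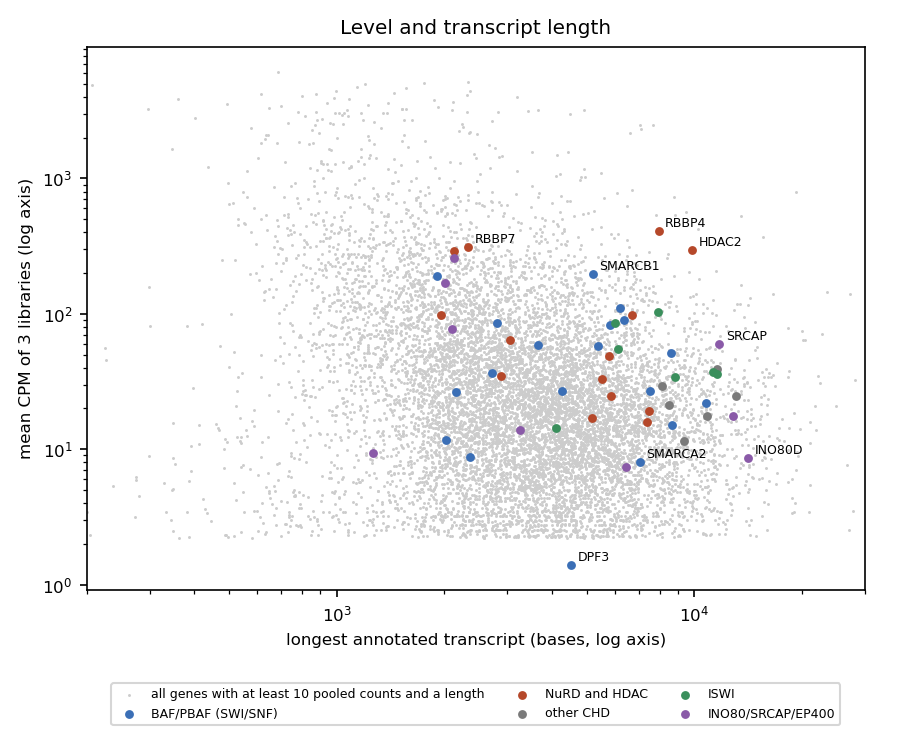
Mean CPM over the 3 libraries (log axis) against the length of the longest annotated transcript in bases (log axis), with remodeler genes coloured by complex over all genes in grey. The highest members are found both at short (RBBP7, 2333 bases) and long lengths (RBBP4, 7943 bases).

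Paralogs were compared in 32 pairs fixed by protein family, of which 29 had at least 10 pooled counts for both genes. The log2 ratio of the counts was taken in each library with a pseudocount of 0.5. Its mean was compared with 0 by limma, in a fit over the ratios of all 11424 genes with at least 10 pooled counts to the second gene of each pair. A pair was called at a Benjamini-Hochberg adjusted p under 0.05 over all genes and all second genes. By this rule 24 of 29 pairs differed (82.8%), which is close to the 83.6% of ratios called when any gene was set against the same 23 second genes. A difference between paralogs was thus about as common as between arbitrary genes. In 16 of the 29 pairs (55.2%) the difference was called and exceeded 1 on the log2 scale, beside 69% of ratios of any gene to the same second genes. In the 24 called pairs the same gene was higher in 3 of 3 libraries. The largest limma adjusted p among them was 0.0046. All ratios in that fit share the error of a reference gene, so its p-values can be too small or too large. With the first gene as the reference, the limma adjusted p went from 0.00010 to 4.9e-31 for SMARCD1/SMARCD3. For MTA1/MTA2 it went from 3.4e-11 to 0.00063. A second limma fit, added after the data were seen, moderated the spread of each pair's ratio toward that of the 29 pairs together. By this moderated pair spread, the 95% interval excluded 0 in 23 pairs, all of those called except CHD9 against CHD7. Pairs with a wide spread get narrower intervals this way than from their own 3 values alone.

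**Figure D3:**
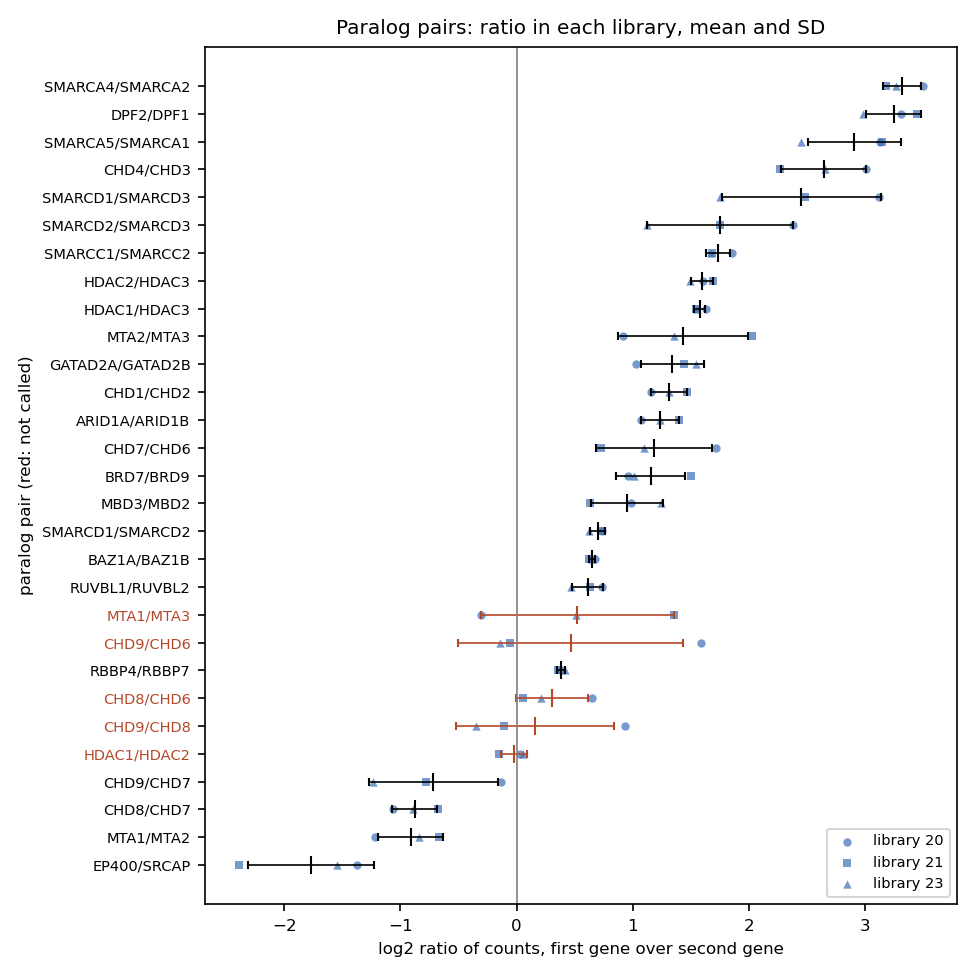
Log2 ratio of counts, first gene over second gene, for the 29 tested paralog pairs in each library, with mean (bar) and SD (whiskers). Pairs in black were called and the 5 in red were not. SMARCA4/SMARCA2 and DPF2/DPF1 stand farthest to the right, and HDAC1/HDAC2 sits at 0.

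The ATPase counts of SWI/SNF came mainly from one gene, and the SWI/SNF group as a whole took 27.7% ± 0.61 of the members' counts. SMARCA4 (BRG1), one of the 2 alternative catalytic subunits, had 80.0, 84.9 and 83.5 CPM in libraries 20, 21 and 23. SMARCA2 (BRM), the alternative, had 6.78, 9.02 and 8.41 CPM, from 10, 12 and 13 counts. The ranges were far apart, and SMARCA4 exceeded SMARCA2 by a log2 ratio of 3.31 ± 0.16, or 9.94-fold, in 3 of 3 libraries. It made up 91.1% ± 0.93 of the ATPase counts of the complex. By the spikes this was 43.3 ± 2.45 against 4.22 ± 0.62 molecules per cell.

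The bases upstream of both start sites are shown because the counted tags begin at such starts and this pair was the most unequal of those tested. They are from RefSeq on GRCh38.p14, not the authors' build, and end at the base before the most upstream start listed for the gene, 5′ to 3′ on the plus strand in both cases. SMARCA4 lies at chr19:10960780-10961029 and SMARCA2 at chr9:2015097-2015346. Capitals mark GC boxes (GGGCGG on either strand).
SMARCA4: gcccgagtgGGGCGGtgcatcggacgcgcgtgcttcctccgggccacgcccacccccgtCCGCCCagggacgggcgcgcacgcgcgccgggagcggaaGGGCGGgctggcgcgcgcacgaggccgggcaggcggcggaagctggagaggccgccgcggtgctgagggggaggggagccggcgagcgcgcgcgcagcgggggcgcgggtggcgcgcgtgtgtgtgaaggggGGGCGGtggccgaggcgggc
SMARCA2: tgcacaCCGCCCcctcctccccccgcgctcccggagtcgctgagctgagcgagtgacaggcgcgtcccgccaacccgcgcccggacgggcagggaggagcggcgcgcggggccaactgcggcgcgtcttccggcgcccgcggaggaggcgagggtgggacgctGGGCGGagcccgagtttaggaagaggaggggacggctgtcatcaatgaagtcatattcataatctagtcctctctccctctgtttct

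The SMARCA4 window held 4 GC boxes and 44 CG pairs, and the SMARCA2 window held 2 and 29. Both genes have further starts in the table (2 for SMARCA4 and 4 for SMARCA2 in all), and the counts do not say which were used. Promoters of 250 bases were found for 48 members. The GC box was in 34 of them (70.8%), beside 67.0% of the 10282 promoters of listed genes and 42.2% of all 27305. CCAAT, searched on both strands like each motif, was in 39.6% of member promoters and 35.0% of those of listed genes. TATAAA was in 2.08% and 5.45%, and CACGTG in 6.25% and 8.87%. A match describes letters in the window and is not a binding site.

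The DNA-binding ARID subunits also had a leading form. ARID1A had 48.8, 48.1 and 58.2 CPM and ARID1B 23.0, 18.0 and 24.6 CPM, a log2 ratio of 1.23 ± 0.16 with no overlap. ARID2, which marks PBAF, had 10.2, 15.8 and 19.4 CPM, so both ARID1 genes together outweighed it 5.17 ± 1.64-fold. Of the members, the other PBAF subunits named above were PBRM1, a protein with several bromodomains, at 27.0 ± 2.76 CPM and BRD7 at 58.3 ± 5.21 CPM. BRD9, which marks the noncanonical complex, had 31.8, 21.0 and 25.9 CPM. BRD7 exceeded BRD9 by a log2 ratio of 1.16 ± 0.30. Per base of transcript this turned to -0.16 (limma adjusted p = 0.54).

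The core scaffold subunits were led by 1 gene each. SMARCC1 had 86.7, 92.4 and 89.3 CPM and SMARCC2 23.7, 28.6 and 27.8 CPM, and the log2 ratio of 1.74 ± 0.10 was among the steadiest. In the SMARCD group, which links the complex to transcription factors, SMARCD1 had 59.3 ± 5.81 CPM, SMARCD2 36.6 ± 5.32 CPM and SMARCD3 6.10, 9.77 and 19.4 CPM. SMARCD1 exceeded SMARCD2 by 0.70 ± 0.063 on the log2 scale, a call lost when counts were divided by transcript length (0.27, limma adjusted p = 0.12). SMARCD3, known from heart and muscle, was the member whose libraries lay farthest apart. SMARCD1 and SMARCD2 exceeded it by log2 ratios of 2.45 ± 0.69 and 1.75 ± 0.63, the first of which was 1.59 per base of transcript. Neither call held without library 21 (limma adjusted p = 0.12 and 0.26), nor did that for SMARCD2 without library 20 (0.078).

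Some SWI/SNF positions had more counts than the ATPase genes, whose sum was 90.8 ± 3.70 CPM, while both ARID1 genes together (73.6 ± 8.49 CPM), ARID2, PBRM1, BRD7 and BRD9 had fewer. SMARCB1, a core subunit and tumour suppressor, had 214.8, 188.6 and 185.7 CPM, and ACTL6A, the actin-related subunit of dividing cells, had 207, 184 and 177 CPM. They stood at 2.17 ± 0.27 and 2.09 ± 0.26 times the summed SMARCA4 and SMARCA2 level. ACTL6A is also part of the INO80 and EP400 complexes. SMARCE1, with a high mobility group domain, had 109.7 ± 9.08 CPM, near the summed SMARCC (116 ± 5.32 CPM) and SMARCD (108 ± 17.9 CPM) levels.

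Among the DPF genes, which encode PHD finger subunits, DPF2 carried 89.4% ± 1.48 of the counts. DPF2 had 96.9, 85.7 and 73.8 CPM and DPF1, a neuronal form, had 9.49, 7.51 and 9.06 CPM, a log2 ratio of 3.25 ± 0.24 (9.48-fold). DPF3, known from heart and muscle, had 2 counts in each library. With 371 pooled counts for DPF2 and 6 for DPF3 the ratio was 61.8 (95% exact interval 28.1 to 169.6), and DPF1 over DPF3 gave 6.33 (2.66 to 18.3), with intervals that cover counting error only. Like DPF1 and DPF3, SMARCD3 was low, at 11.8 ± 6.88 CPM, and its range overlapped that of DPF1.

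**Figure D4:**
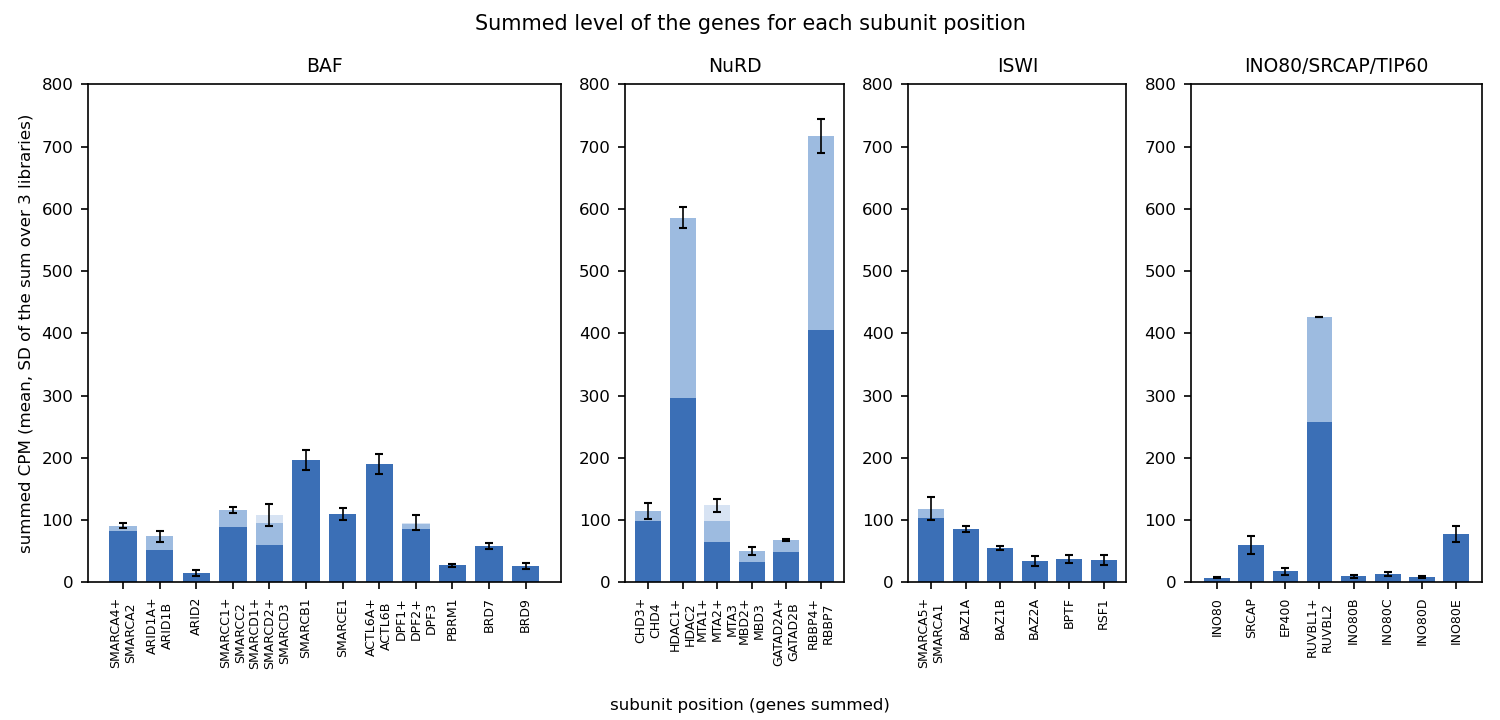
Summed CPM of the genes that can fill each subunit position (linear axis from 0), stacked by paralog with the most abundant darkest, and whiskers for the SD of the sum over 3 libraries. HDAC1 with HDAC2, RBBP4 with RBBP7 and RUVBL1 with RUVBL2 rise above the catalytic ATPases of their complexes.

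The NuRD and HDAC group had the most counts, 44.0% ± 0.34 of the members' total. All of its 14 genes averaged at least 10 CPM, beside 44.6% of all listed genes. The NuRD ATPase CHD4 (Mi-2 beta) had 89.4, 99.2 and 107 CPM and the paralog CHD3 had 10.8, 20.3 and 16.8 CPM. CHD4 exceeded CHD3 by a log2 ratio of 2.64 ± 0.37 (6.24-fold) and made up 86.2% ± 3.09 of the sum. The histone-binding proteins RBBP4 and RBBP7, shared with Sin3, PRC2 and, for RBBP4, the CAF-1 chaperone, were the top members of the whole set. RBBP4 had 414, 385 and 419 CPM and RBBP7 318, 301 and 314 CPM. The small difference was steady (log2 ratio 0.38 ± 0.031, 1.30-fold, higher in 3 of 3 libraries), but per base of transcript it turned to -1.39 and was called in that direction. RBBP4 and RBBP7 summed to 6.32 ± 0.86 times the CHD3 and CHD4 level.

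The class I deacetylases HDAC1 and HDAC2, the catalytic partners in NuRD, Sin3 and CoREST complexes, were the pair with the smallest difference. HDAC1 had 291, 287 and 294 CPM and HDAC2 had 285, 319 and 283 CPM. The ranges overlapped, with HDAC1 ahead in libraries 20 and 23 and HDAC2 in library 21. The log2 ratio was -0.02 ± 0.11 (limma adjusted p = 0.82), and it was 0.04 without library 21. Its 95% interval from the moderated pair spread was -0.30 to 0.26. This near equality is in counts of 5′ tags, which are not divided by length. Per base of the longest transcript HDAC1 was higher by 2.20 on the log2 scale and the pair was called. That shift is set by the ratio of the annotated lengths. HDAC3, the deacetylase of the NCoR and SMRT complexes, had 93.5, 98.4 and 100.3 CPM. It lay below HDAC1 and HDAC2 by log2 ratios of 1.57 ± 0.051 and 1.60 ± 0.098, and per base of transcript HDAC2 over HDAC3 gave -0.74 and was called in that direction. GENCODE names 6 pseudogenes after RBBP4 and 2 after HDAC1, and the listed ones had 1 and 2 pooled counts, so little was assigned to these copies.

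The windows upstream of HDAC1 and HDAC2 are shown for contrast, as the pair of paralogs closest in level. HDAC1 lies on the plus strand at chr1:32291833-32292082 and HDAC2 on the minus strand at chr6:113971149-113971398 (RefSeq, GRCh38.p14), each with 1 listed start and printed 5′ to 3′ along the gene. Capitals mark GC boxes and CCAAT boxes on either strand, as above.
HDAC1: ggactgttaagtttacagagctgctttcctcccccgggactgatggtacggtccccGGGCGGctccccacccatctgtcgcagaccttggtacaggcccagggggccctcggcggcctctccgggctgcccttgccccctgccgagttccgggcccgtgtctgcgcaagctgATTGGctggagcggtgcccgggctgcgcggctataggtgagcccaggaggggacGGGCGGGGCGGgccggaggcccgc
HDAC2: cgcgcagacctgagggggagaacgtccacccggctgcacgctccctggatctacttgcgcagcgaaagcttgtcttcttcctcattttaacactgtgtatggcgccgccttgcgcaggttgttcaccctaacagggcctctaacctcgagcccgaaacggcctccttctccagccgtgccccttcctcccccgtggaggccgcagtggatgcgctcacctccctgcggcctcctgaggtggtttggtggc

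HDAC1 held 3 GC boxes, 1 CCAAT box and 21 CG pairs, whereas the HDAC2 window held 0 and 0 of these boxes and 18 CG pairs. The bases that follow the listed HDAC1 start were found in no GENCODE transcript, unlike those of the other 3 genes shown, and which start its tags came from was not tested.

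The remaining NuRD subunits were lower, and each had a leading paralog. Among the MTA scaffold proteins MTA2 led with 60.3, 62.4 and 69.9 CPM, against 25.7, 39.1 and 38.8 CPM for MTA1 and 31.8, 15.0 and 27.2 CPM for MTA3. MTA1 lay below MTA2 by a log2 ratio of -0.91 ± 0.28, and MTA2 exceeded MTA3 by 1.43 ± 0.56. Leaving out library 23 ended the latter call (limma adjusted p = 0.16), and per base of transcript that ratio was 2.36. MTA1 and MTA3 overlapped, and their ratio of 0.52 ± 0.83 did not pass (limma adjusted p = 0.24). Its 95% interval was 0.81- to 2.54-fold in that fit and 0.70- to 2.95-fold by the moderated pair spread. That pair was called per base of transcript (1.53, limma adjusted p = 0.00042). It was also called in a check added after the data were seen, with the spread taken from single genes. That check was a t-test with limma variances that treated the 2 genes as independent (adjusted p = 0.013). MBD3, the methyl-CpG-binding domain protein of one NuRD form, exceeded MBD2, that of the other form, by 0.95 ± 0.31, with 32.9 ± 5.32 against 16.9 ± 3.09 CPM. GATAD2A exceeded GATAD2B, both zinc finger proteins that bridge MBD proteins and CHD4, by 1.34 ± 0.27, with 48.9 ± 1.32 against 19.3 ± 3.30 CPM. By summed paralogs the MTA position (123 ± 10.8 CPM) was near that of the ATPases (115 ± 12.7 CPM), while the MBD position had 49.8 ± 6.39 CPM.

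Of the other CHD genes, which encode single-chain remodelers with chromodomains, all 6 averaged at least 10 CPM, beside 44.6% of all listed genes. Together these 6 had 143 ± 2.63 CPM. CHD7, mutated in CHARGE syndrome, led with 38.6, 33.8 and 44.6 CPM. CHD1, which binds methylated histone H3 lysine, followed with 29.1, 33.8 and 24.6 CPM and exceeded CHD2 (12.9, 12.0 and 9.71 CPM) by a log2 ratio of 1.31 ± 0.15. Within the CHD6 to CHD9 family most differences were small or unsteady, while CHD8 was called below CHD7 whichever library was left out. CHD9 had 35.2 CPM in library 20 but 19.5 and 18.8 in the others, while CHD6 had 11.5 in library 20 and 20.3 and 20.7 in the others.

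CHD7 exceeded CHD6 by a log2 ratio of 1.18 ± 0.50, which did not pass once library 23 was left out (limma adjusted p = 0.097). CHD8 over CHD7 gave -0.88 ± 0.19, and per base of transcript this was not called (-0.43, limma adjusted p = 0.066). CHD9 lay below CHD7 by -0.72 ± 0.56. The interval from the moderated pair spread, -1.44 to 0.0045, included 0. The call was lost with CHD9 as the reference (limma adjusted p = 0.079), and the ratio was -0.46 without library 23. The 3 pairs among CHD6, CHD8 and CHD9 did not pass the threshold (limma adjusted p from 0.20 to 0.41). Their 95% intervals from the moderated pair spread were 0.90- to 1.69-fold for CHD8 over CHD6, 0.60- to 3.19-fold for CHD9 over CHD6 and 0.61- to 2.03-fold for CHD9 over CHD8. Both CHD9 ratios, 0.46 ± 0.97 and 0.16 ± 0.68, turned without library 20, to -0.10 and -0.23, and CHD9 over CHD8 was -0.47 per base of transcript (limma adjusted p = 0.069).

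ISWI genes, with 365 ± 23.7 CPM in all, were led by SMARCA5 (SNF2H), the ATPase of most ISWI complexes in dividing cells. SMARCA5 had 97.6, 96.2 and 117.8 CPM and SMARCA1 (SNF2L), the ATPase of the NURF complex, had 10.8, 10.5 and 21.4 CPM. The log2 ratio was 2.91 ± 0.40, or 7.51-fold, and SMARCA5 took 88.3% ± 3.13 of both. Per base of transcript the log2 ratio was 1.96. Among the partner subunits that define single ISWI complexes, BAZ1A (ACF) had 90.8, 85.7 and 80.2 CPM and BAZ1B (WICH) 56.9, 55.6 and 51.1 CPM, a log2 ratio of 0.65 ± 0.025. BPTF, the NURF scaffold, RSF1, of the RSF complex, and BAZ2A, of the nucleolar NoRC complex, lay close together at 37.4 ± 6.66, 35.6 ± 8.12 and 34.1 ± 7.48 CPM, with overlapping ranges.

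In the INO80 group the shared helicase-like subunits stood far above the catalytic ATPases. RUVBL1 had 267, 259 and 248 CPM and RUVBL2, its partner in a common ring, 160, 168 and 179 CPM, a log2 ratio of 0.61 ± 0.13 in favour of RUVBL1. These proteins also serve other assemblies such as the R2TP cochaperone. Of the 3 catalytic ATPases, SRCAP had 42.7, 68.4 and 68.6 CPM, EP400 16.3, 12.8 and 23.3 CPM and INO80 7.45, 8.27 and 6.47 CPM, with no overlap between them. EP400 lay below SRCAP by a log2 ratio of -1.77 ± 0.54. INO80 had the lowest mean of the 15 ATPase genes, on 11, 11 and 10 counts and with a range that overlapped that of SMARCA2, and RUVBL1 with RUVBL2 reached 58.3 ± 7.18 times its level. Of the subunits named after INO80, INO80E had 63.0, 79.6 and 88.6 CPM, 10.6 ± 2.75 times INO80, while INO80B, INO80C and INO80D had 9.40 ± 1.84, 13.8 ± 3.19 and 8.54 ± 1.25 CPM.

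No remodeler gene differed between libraries past the threshold. Of the 54 with at least 10 pooled counts 0 were called in any of the 3 pairs of libraries, beside 0.56% of 11424 genes (2-sided exact binomial test on counts, Benjamini-Hochberg adjusted over all genes and pairs). At an unadjusted p under 0.05 there were 11 of 54 (20.4%), beside 15.9% of all genes, and a chi-square test over the 3 libraries, added later, called 0 members and 83 of all genes, with 6 members (11.1%) and 9.26% of all genes below 0.05 unadjusted. The lowest adjusted p by the exact test was 0.18, for SMARCD3 with 9 counts in library 20 and 30 in library 23. SRCAP followed, with 63 counts in library 20 and 106 in library 23 (adjusted p = 0.28 by the exact test), then MTA3 with 47 and 20 in libraries 20 and 21 (0.37). Differences between libraries of this size did not pass the test at this depth. Both tests allow for counting error only.

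Other subunits of these complexes gave a similar picture. Of 41 further genes from a fixed list 40 had a row, 2 of them under older names. In all, 32 of the 41 averaged at least 10 CPM, beside 44.6% of all listed genes, and the median was 36.5 ± 0.54 CPM. The highest was ACTB, the actin gene, whose protein is also a BAF and INO80 subunit, at 3388 ± 118 CPM. MORF4L1, of the TIP60 acetyltransferase complex, had 314 ± 6.89 CPM, POLE3, a histone-fold protein of the CHRAC complex, 181 ± 7.75 CPM, and UCHL5, a deubiquitinase of INO80 and the proteasome, 180 ± 16.2 CPM. CHD5, a NuRD ATPase of neurons, had 2 counts in library 23 alone, and CECR2, an ISWI partner, had 1, 0 and 5 counts. BICRA and BICRAL, subunits of the noncanonical BRD9 complex, had 5.70 ± 1.89 and 2.11 ± 0.86 CPM.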

How the data were processed

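RNA 5′ ends were counted per gene in 3 libraries of HEK293 cells. The authors deposited raw counts per gene and per spiked RNA with no normalization. The submitters' processing notes name the trimmer cutadapt 1.2.1, the aligner STAR 2.4.0a and the build hg19 (GRCh37). Not given in the sources used here: counting tool, annotation, use of strand and handling of molecular identifiers. Counts may therefore be of reads or molecules, and 16 members overlap another listed gene in GENCODE v29 (13 on the opposite strand). Columns carry no replicate number and were used as unnumbered replicates.

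CPM used endogenous totals without the 80 spikes. Ratios were tested with limma 3.58.1 (trend) over all genes, and libraries with exact binomial tests in scipy 1.17.1. Work was done in R 4.3.3 and Python 3.11.15. The scripts were tested on simulated data. TMM factors (edgeR 4.0.16), median-of-ratios factors (DESeq2 1.42.0), other pseudocounts, filters, tests and transcript lengths served as alternatives, as did leaving out each library. Lengths are of the longest GENCODE v29 transcript, matched by name. Members, pairs and lists were chosen with earlier results of these data known. Every member could be named, and of the other remodeler genes the 4 highest and the lowest were, with BICRA and BICRAL chosen after their values were seen.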

Additional observations from a re-analysis of the deposited data

How the results depend on the processing

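The number of paralog pairs called was 24 and ranged from 22 to 25 over 12 alternatives, and the number of members at 10 CPM from 47 to 49 over 7. No member was called between libraries under any of 10 alternatives. The members' sum of 2091 molecules per cell was 2012 to 2153 when 1 library was left out and 2104 with the more abundant spikes. Of 348 pair values under an alternative, 329 kept direction and call, 9 lost the call, 2 gained it and 8 changed direction. Dividing by transcript length, which shifts a ratio by the ratio of the lengths, turned BRD7/BRD9 to -0.16, RBBP4/RBBP7 to -1.39, HDAC1/HDAC2 to 2.20, HDAC2/HDAC3 to -0.74 and CHD9/CHD8 to -0.47. Among pairs that were not called, leaving out 1 library gave CHD9/CHD6 from -0.097 (without 20) to 0.77, CHD9/CHD8 from -0.23 (without 20) to 0.41 and HDAC1/HDAC2 from -0.060 to 0.043 (without 21). Calls lost when 1 library was left out involved SMARCD3, CHD6 and MTA3, each the reference gene of its pair, where 2 libraries remained. No paired analysis was possible because there is 1 group. Depth limits the members with few counts, among them SMARCA2, SMARCD3, DPF1, DPF3, CHD2, INO80, INO80B, INO80C and INO80D, which rest on 2 to 30 counts per library.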

Other observations

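The summed level of RUVBL1 and RUVBL2 was 426.9, 426.8 and 426.4 CPM in libraries 20, 21 and 23, while RUVBL1 alone had 267, 259 and 248 CPM and RUVBL2 alone 160, 168 and 179 CPM. The SD of the sum, 0.28 CPM, is smaller than the 17.2 CPM that counting error alone gives for 1 library, and neither gene was called between libraries. It was the smallest SD of all the subunit positions summed, so it is the extreme of many values. Whether the total is held constant was not tested.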
